A study of Mus musculus with 4 samples.

Results

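The genes described here encode proteins that choose splice sites in mouse pre-mRNA: SR proteins, heterogeneous nuclear ribonucleoproteins (hnRNPs) and a set of other splicing regulators (the PTB, muscleblind and CELF families, RBFOX2, RBM38, the TRA2 and SRRM proteins and the CLK kinases). They were chosen by a rule on the symbol alone, which was set with earlier results of these data known. The rule took rows of the expression table with 1 gene symbol. That symbol was Srsf or Hnrnp followed by a number or letters, or 1 of a fixed set of names. This gave 41 of the 47935 loci in the table, with 11 SR protein genes, 16 hnRNP genes and 14 others. A further 6 loci held such a gene together with another symbol, among them Srrm2 and Clk4, and were left out by that rule.

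The samples were 4 libraries of MEL cells, a mouse erythroleukemia line that is halted early in erythroid development and resumes an erythroid-like programme when dimethyl sulfoxide (DMSO) is added. There were 2 uninduced samples, in complete DMEM with 10% fetal bovine serum, and 2 DMSO-induced samples in that medium with 1.5% DMSO. The sources used here do not say how long DMSO was present or whether a group's 2 samples were separate cultures. Every p-value below therefore reflects the spread among these 4 libraries alone, and that spread may be technical. RNA was depleted of ribosomal RNA rather than selected for poly(A) tails, and levels are FPKM, the number of sequenced fragments scaled to transcript length and to library size.

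SR proteins bind exonic enhancers through RNA recognition motifs and recruit the splicing machinery through arginine- and serine-rich tails that kinases of the CLK and SRPK families phosphorylate. Many hnRNPs act in the opposite sense and silence exons, and PTB, MBNL, CELF and RBFOX proteins bind short motifs in introns and exons to switch cassette exons on or off during differentiation. In red cell development such switches are known for exons of the membrane skeleton gene Epb41, and RBM38 and MBNL1 are known splicing regulators of late erythroid cells. Many genes of these families limit their own output by splicing in an exon, or keeping an intron, that sends the transcript to nonsense-mediated decay.

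The labelled cell type was checked against markers. All 10 erythroid markers were detected, 9 of them at 1 FPKM or more in every sample, and their summed level was 1470 and 1762 FPKM without DMSO and 59341 and 112904 FPKM with it. The 4 lymphoid markers summed to 0.45 to 0.82 FPKM and the 4 fibroblast markers in the table to 0.25 to 0.96 FPKM. Of 6 myeloid markers only Cd68 reached 1 FPKM in any sample, and their sum was 7.76 and 5.31 FPKM uninduced and 2.18 and 1.34 FPKM induced, while the 2 megakaryocytic markers in the table (Pf4 and Gp9) summed to 201 and 332 FPKM uninduced and 111 and 142 FPKM induced. The part of these differences in the results below was not tested, and in bulk RNA fewer cells of a type and less RNA per cell cannot be told apart.

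Transcripts of splicing regulators were abundant in MEL cells in both states. Averaged over the 4 samples, 16 of the 41 stood at 100 FPKM or more, 16 between 20 and 100 FPKM and 8 below 20 FPKM; all of these 40 were at 1 FPKM or more in every sample and passed the filter on low values. Srsf12 was listed at 0 in all 4 samples and was not tested. Srsf5 and Hnrnpa1 had the highest mean level in their families, and Mbnl3, Mbnl2, Celf2 and Rbfox2 were the lowest of those detected. The plot of FPKM by gene and sample shows this range.

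**Figure D1:**
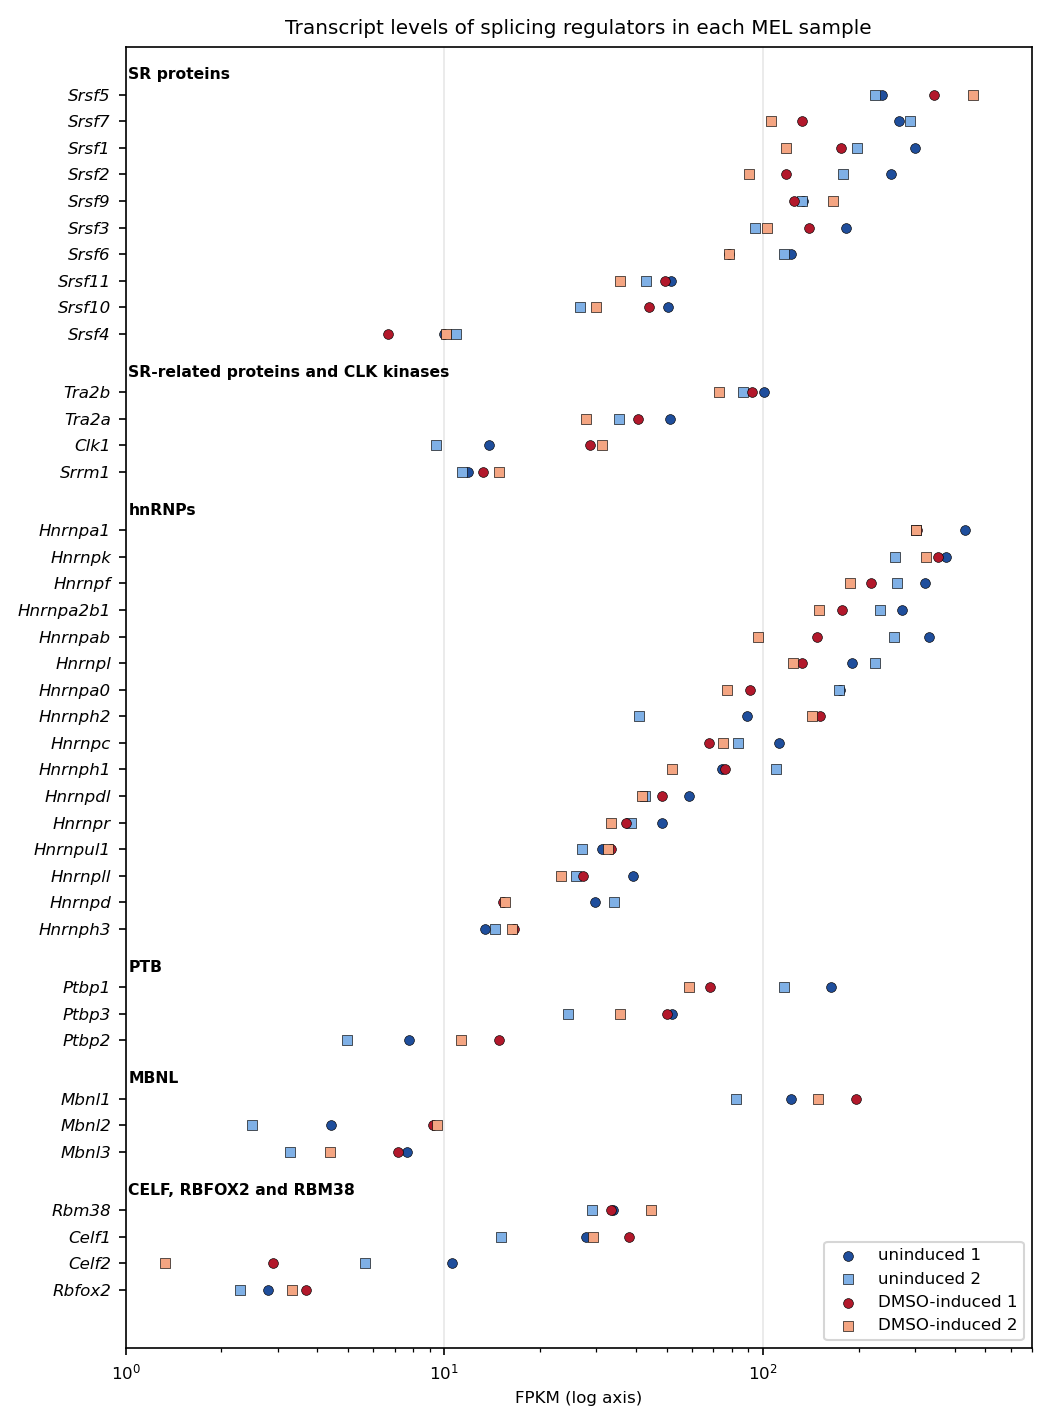
FPKM (log axis) of the 40 detected splicing regulators in each of the 4 MEL samples, grouped by family and ordered by mean level. Blue shades are uninduced samples and red or orange DMSO-induced samples, circles replicate 1 and squares replicate 2; the 2 groups lie apart for Srsf7, Hnrnpa0, Ptbp1, Clk1 and Mbnl2 and interleave for Srsf3, Srsf10 and Mbnl3.

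After DMSO induction, Srsf7, Srsf2, Hnrnpab, Hnrnpa0, Hnrnpd, Ptbp1 and Celf2 fell and Clk1 and Mbnl2 rose. These 9 of 40 members passed the threshold of 0.05 on limma's p, fitted on log2(FPKM + 1) and adjusted by the Benjamini-Hochberg method over all 12890 loci tested. The 7 that fell are 17.5% of the members, against 14.7% of all loci called lower, and the 2 that rose are 5% against 11.5% of all loci called higher. As a group the members were therefore called about as often as the table as a whole, with 26.2% of all loci called in either direction. Among the loci with 1 gene symbol, as all members are, 24.4% were called, 11.1% higher and 13.3% lower. Among the 4341 loci with a mean of at least 20 FPKM, 19% were called lower and 10.1% higher. The median log2 fold change was -0.18 over the 40 members and 0.03 over all loci tested. Both induced values lay above both uninduced values for 11 members and below them for 14, and the groups overlapped for 15; of all loci, 70.8% had groups that did not overlap, 36.1% above and 34.7% below, and of those with 1 gene symbol 71.4%, 38.1% and 33.4%.

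The balance between risen and fallen members depended on scaling, as did that of all loci (1478 called higher and 1899 lower as deposited). Quantile normalization called 5 members higher and 4 lower (1819 and 1692 of all loci). Scaling samples on sums that leave out globins and the 10 most abundant loci (the reduced sums below) called 2 and 3 (1543 and 1512 of all loci). Median-of-ratios factors called 2 and 8 (1344 and 2063 of all loci). Of the 9 calls none remained when any 1 of the 4 samples was left out, or when loci of low level were kept in the fit. A difference between replicates ran through the members. In uninduced replicate 2, 34 of 40 were lower than in uninduced replicate 1 (median log2 difference -0.40), against 56.7% of all loci tested (-0.07). In induced replicate 2, 31 of 40 were lower than in induced replicate 1 (-0.22), against 46.3% of all loci (0.03). The part of this replicate difference in the results below was not tested.

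**Figure D2:**
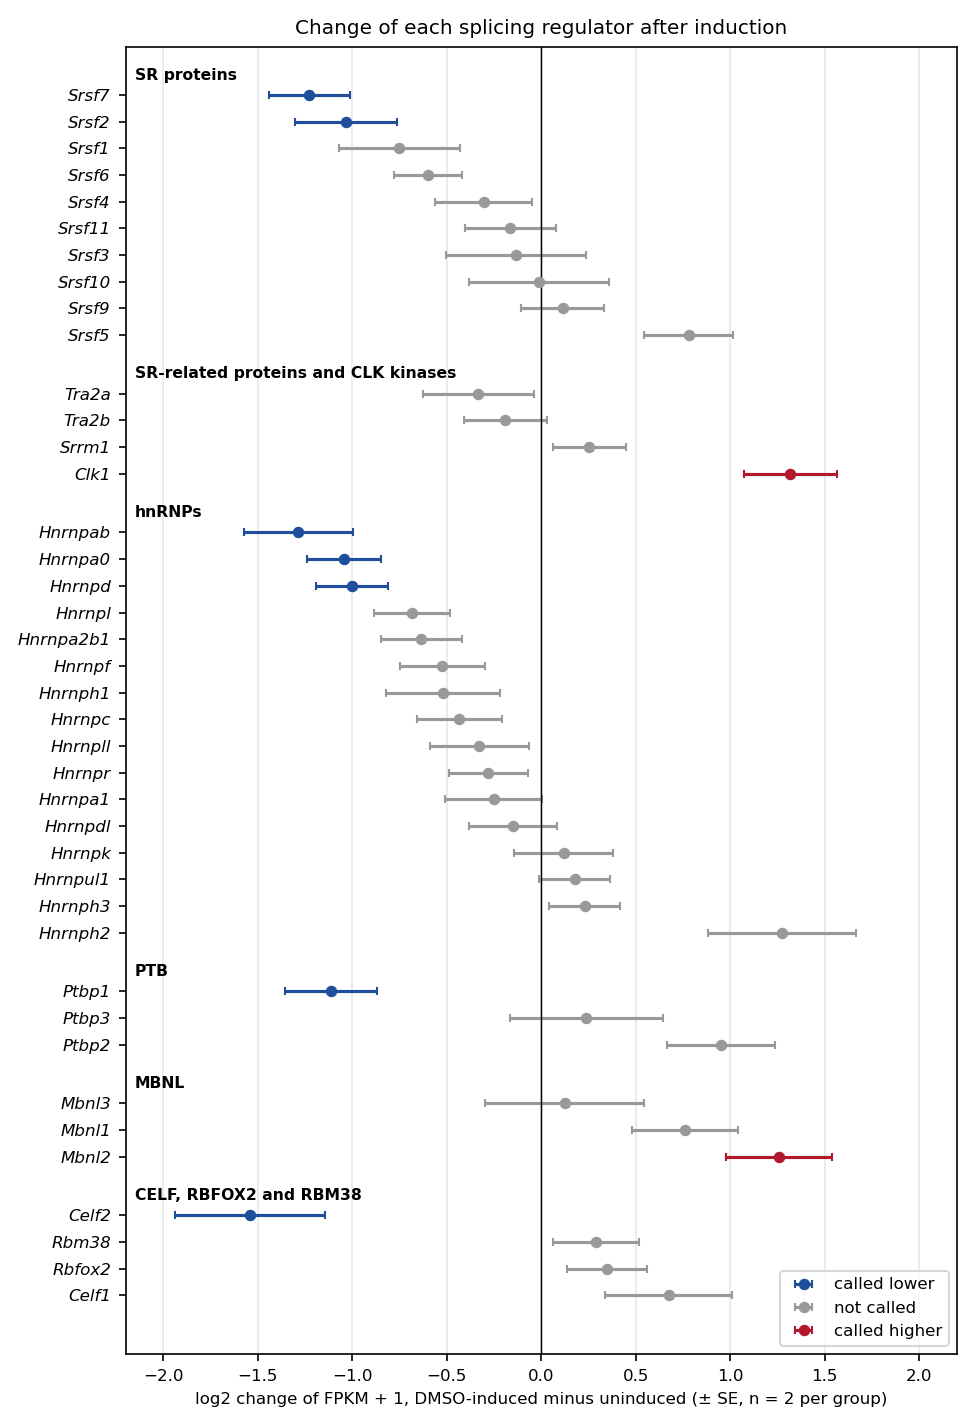
Change on the log2(FPKM + 1) scale, DMSO-induced minus uninduced, with limma's moderated SE (n = 2 per group), for the 40 tested members by family. Blue marks the 7 called lower, red the 2 called higher and grey the 31 not called; SR protein and hnRNP genes lie mostly left of 0, with Srsf5 and Hnrnph2 far to the right of their families, and MBNL genes lie right of 0.

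The start regions of the called member with the largest change in the SR, hnRNP, PTB and MBNL families are shown because these 4 genes lead the results that follow. Each line runs 5′ to 3′ on the gene's strand, from 250 bases before to 50 bases after the RefSeq start on GRCm38.p6, and capitals mark matches, on either strand, to the motifs named below.
Srsf7 (chr17:80207256-80207555, minus strand): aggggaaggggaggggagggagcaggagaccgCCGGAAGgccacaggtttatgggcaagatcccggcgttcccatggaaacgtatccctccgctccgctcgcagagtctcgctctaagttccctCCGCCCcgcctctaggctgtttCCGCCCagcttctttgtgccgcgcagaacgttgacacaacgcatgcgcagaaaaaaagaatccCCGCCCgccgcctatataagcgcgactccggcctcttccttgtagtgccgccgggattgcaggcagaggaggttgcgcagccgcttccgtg
Hnrnpab (chr11:51606832-51607131, minus strand): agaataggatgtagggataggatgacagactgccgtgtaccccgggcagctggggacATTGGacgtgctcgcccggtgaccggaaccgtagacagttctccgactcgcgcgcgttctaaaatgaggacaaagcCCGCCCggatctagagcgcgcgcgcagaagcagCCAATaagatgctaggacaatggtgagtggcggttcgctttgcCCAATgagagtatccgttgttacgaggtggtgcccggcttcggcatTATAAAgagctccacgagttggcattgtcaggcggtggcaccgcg
Ptbp1 (chr10:79854182-79854481, plus strand): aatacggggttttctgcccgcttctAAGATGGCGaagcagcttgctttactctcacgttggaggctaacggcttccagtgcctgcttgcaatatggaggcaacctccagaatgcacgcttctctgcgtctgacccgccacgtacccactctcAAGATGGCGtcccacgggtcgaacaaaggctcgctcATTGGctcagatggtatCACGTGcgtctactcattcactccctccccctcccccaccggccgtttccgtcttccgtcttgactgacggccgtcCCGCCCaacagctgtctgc
Mbnl2 (chr14:120275419-120275718, plus strand): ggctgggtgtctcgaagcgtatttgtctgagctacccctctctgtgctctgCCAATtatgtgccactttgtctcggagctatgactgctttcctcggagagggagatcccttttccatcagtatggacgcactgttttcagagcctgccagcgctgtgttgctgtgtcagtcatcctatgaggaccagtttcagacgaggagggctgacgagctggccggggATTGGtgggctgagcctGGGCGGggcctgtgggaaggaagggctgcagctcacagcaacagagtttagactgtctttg
The motifs searched were the GC box GGGCGG, the CCAAT box CCAAT, the ETS motif CCGGAAG, the E-box CACGTG, the YY1 motif AAGATGGCG, the NRF1 motif, the CRE TGACGTCA, the TATA box TATAAA and the GATA forms AGATAA and TGATAA. Srsf7 has GC boxes whose first bases lie at -126, -104 and -41 from the start and an ETS match at -218. Hnrnpab has CCAAT boxes at -193, -84 and -41 and a GC box at -117. Its TATA match at 6 lies after the RefSeq start used for this window, but before the GENCODE M21 start of the gene (51606847, minus strand). Ptbp1 carries YY1 matches at -225 and -98, an E-box at -45, a CCAAT box at -62 and a GC box at 32, and Mbnl2 carries CCAAT boxes at -199 and -28 and a GC box at -11.

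Windows of this kind were found for 37 of the 41 members, several genes having more than 1. A GC box was present for 31 of the 37 genes, and in 77.8% of the members' 54 windows against 35.7% of all 32851 windows. These 32851 windows were taken whether or not the gene was tested here. No share over tested loci was computed, so the contrasts in this paragraph cannot be read as particular to splicing regulators. CCAAT was present in 46.3% of the members' windows against 37.4% of all, and the ETS motif in 18.5% against 8.86%. The E-box was present in 9.26% against 7.15%. All 7 genes that fell had a GC box in at least 1 of their windows, though for Celf2 not in every window. Mbnl2, which rose, had one too. No window was found for Clk1, the other gene that rose, so fallen and risen genes cannot be compared. AGATAA, a form of the site read by GATA factors, was found in 5.56% of the members' windows and 11.2% of all. A match is only a string of letters in a window and shows no binding.

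Among SR proteins, Srsf7 and Srsf2 fell to less than 50% of their uninduced level while Srsf5 had its highest values in the induced samples. Srsf7 (also called 9G8; chromosome 17, 80200080 to 80207307 in GENCODE M21), a shuttling SR protein that also takes part in mRNA export, measured 268 and 290 FPKM in the uninduced and 132 and 106 FPKM in the induced samples. Both induced values lay under 50% of both uninduced ones. The log2 fold change was -1.23 ± 0.21 (SE; limma adjusted p = 0.0209), from 279 ± 15.4 to 119 ± 18.5 FPKM (SD, n = 2 each).

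Srsf2 (SC35; chromosome 11, 116849901 to 116853094), an SR protein whose gene is recurrently mutated in human myelodysplastic syndromes, measured 253 and 178 FPKM uninduced and 118 and 90.5 FPKM induced. The groups did not overlap, although the uninduced samples stood apart from each other. The log2 fold change was -1.03 ± 0.27 (limma adjusted p = 0.0475). This call was close to the threshold and did not pass under quantile normalization (limma adjusted p = 0.0886), with the reduced sums (0.0879), with a pseudocount of 0.1 (0.0527) or without the mean-variance trend. Exons of Srsf2 share 460 bases with the antisense gene Mettl23 and 288 with Mfsd11, and strandedness was not given, so reads of the 3 genes may be mixed.

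Srsf5 (SRp40) was the most abundant SR transcript in both induced samples. It measured 237 and 225 FPKM uninduced and 344 and 458 FPKM induced, so both induced values lay above both uninduced ones. Its log2 fold change of 0.78 ± 0.24 did not pass (limma adjusted p = 0.0666; 95% interval 0.17 to 1.39). It did pass under quantile normalization and among loci with 1 symbol only.

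Srsf6 measured 122 and 116 FPKM uninduced and 78.6 and 78.1 FPKM induced, a tight and non-overlapping difference (log2 fold change -0.60 ± 0.18) that also fell short of the threshold (limma adjusted p = 0.0648). Srsf1, the founding SR protein (SF2/ASF), measured 300 and 198 FPKM uninduced and 176 and 118 FPKM induced (log2 fold change -0.75 ± 0.32, limma adjusted p = 0.138). Its groups did not overlap either, but the 2 uninduced values differed by more than the lower of them differed from the induced ones. Srsf6 passed with median-of-ratios factors (limma adjusted p = 0.0446) and among loci with 1 symbol only (0.0443), and Srsf1 with a replicate block (0.0449). These 2 genes were picked for their fold after their values were seen.

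The remaining SR protein genes overlapped between groups. Srsf9 measured 134 and 133 FPKM uninduced and 125 and 166 FPKM induced, and Srsf3, the smallest SR protein, 182 and 94.7 against 139 and 103 FPKM. Srsf3 and Srsf10 (50.3 and 26.7 against 44.1 and 30.02 FPKM) differed more between replicates than between groups. Srsf11 measured 51.6 and 43.0 against 49.5 and 35.5 FPKM, and Srsf4, the largest of the classical SR proteins and the least abundant here, 9.97 and 10.9 against 6.67 and 10.2 FPKM.

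The sum and the make-up of the SR protein transcripts were compared between groups without a test. The summed FPKM of the SR protein genes was 1609 and 1316 uninduced and 1215 and 1196 induced, a ratio of induced to uninduced of 0.82. The 2 uninduced sums lay further from each other than the lower of them lay from the induced ones. Under quantile normalization the ratio came close to 1 (log2 difference -0.02, against -0.27 as deposited). Shares of the summed FPKM do not change with a scaling factor applied to a whole library, though quantile normalization can change them. Srsf5 held 14.7% and 17.1% uninduced and 28.3% and 38.3% induced. Srsf7 held 16.7% and 22.03% uninduced and 10.9% and 8.88% induced. For Srsf2 the shares were 15.7% and 13.6%, then 9.73% and 7.57%. No uninduced share of these 3 genes, picked with their values known, lay in the range of the induced ones. The same held for Srsf1, Srsf6 and Srsf9, while the shares of Srsf3, Srsf4, Srsf10 and Srsf11 overlapped between groups. Levels of single loci did not overlap for 70.8% of all loci tested, so nothing is read from this separation. With 2 samples against 2, an exact two-sided permutation test cannot go below p = 0.333, so shares and ratios are given without a test.

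**Figure D3:**
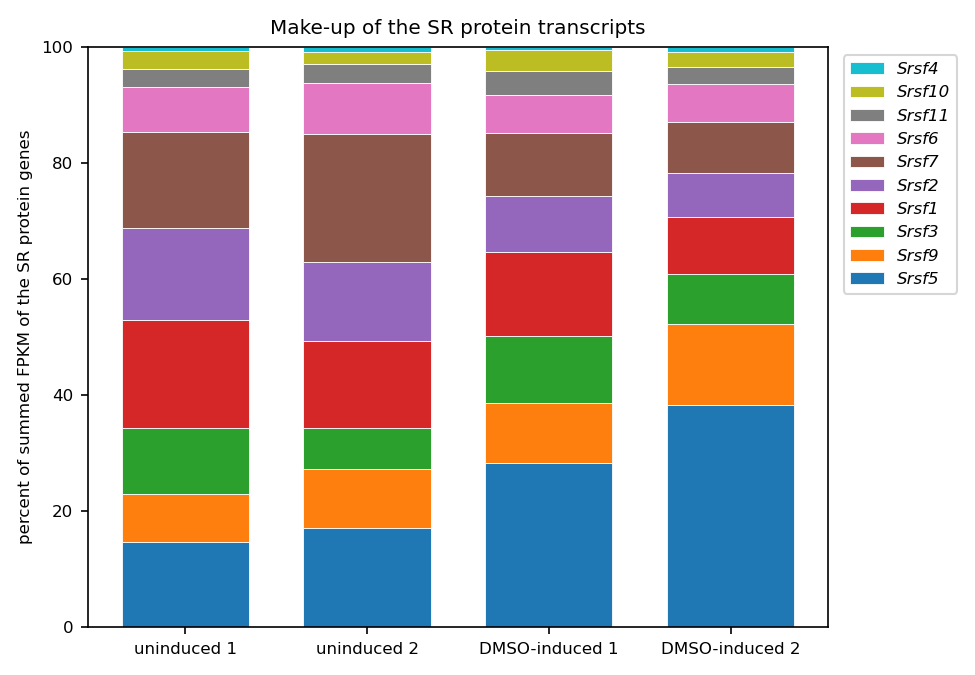
Share of each SR protein gene in the summed FPKM of the family (bars add to 100 percent), 1 bar per sample. Srsf5 (bottom, blue) takes 14.7% and 17.1% of the uninduced bars and 28.3% and 38.3% of the induced ones, while Srsf7 (brown) and Srsf2 (purple) take smaller shares in the induced samples.

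Of the SR-related genes and kinases, Clk1 rose and Tra2a, Tra2b and Srrm1 were not called. Clk1 (chromosome 1, 58410189 to 58424066), a dual-specificity kinase that phosphorylates SR proteins and releases them from nuclear speckles, measured 13.8 and 9.41 FPKM uninduced and 28.7 and 31.4 FPKM induced. Every induced value was more than 2 times every uninduced one. The log2 fold change was 1.32 ± 0.25 (limma adjusted p = 0.0232). This was the largest rise among the 40 members on the log2(FPKM + 1) scale as deposited, but Mbnl2 rose more with a pseudocount of 0.1 and Hnrnph2 was higher under quantile normalization. GENCODE M21 lists 7 of its 13 transcripts as retained-intron forms, and a gene-level FPKM from total RNA does not separate these from the coding mRNA.

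Tra2b, which binds GAA-rich enhancers and is the more abundant of the 2 TRA2 genes, measured 101 and 86.7 FPKM uninduced and 92.3 and 72.8 FPKM induced. Its log2 fold change of -0.19 ± 0.22 (limma adjusted p = 0.539) had a 95% interval of -0.75 to 0.37, and the sign turned under quantile normalization (0.07). Tra2a measured 51.2 and 35.3 against 40.5 and 27.8 FPKM. Srrm1, a coactivator that bridges SR proteins and snRNPs, measured 11.8 and 11.4 FPKM uninduced and 13.3 and 14.9 FPKM induced, and was not called.

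Of the 16 hnRNP genes, 3 fell, none rose and 13 were not called, with a median log2 fold change of -0.38 and 12 of 16 below 0. That is 18.8% called lower, against 14.7% of all loci and 19% of those with a mean of at least 20 FPKM. Of all 12890 loci 6294 had a log2 fold change below 0. Hnrnpab (chromosome 11, 51600100 to 51606847), an A/B-type hnRNP with a pair of RNA recognition motifs, measured 333 and 257 FPKM uninduced and 148 and 96.7 FPKM induced. The groups did not overlap. Its log2 fold change of -1.28 ± 0.29 (limma adjusted p = 0.0345) passed. The call did not pass under quantile normalization (limma adjusted p = 0.0602) or with the reduced sums (0.0567). Exons of Hnrnpab share 809 bases with the antisense gene Phykpl.

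Hnrnpa0 (chromosome 13, 58125879 to 58128556), an intronless gene whose protein binds AU-rich elements of cytokine mRNAs, measured 175 and 173 FPKM uninduced and 91.0 and 77.0 FPKM induced. Uninduced replicates were nearly equal and the induced ones lay at about 50% of them. The log2 fold change was -1.04 ± 0.20 (limma adjusted p = 0.0235). Hnrnpd (AUF1; chromosome 5, 99955935 to 99978938), another AU-rich element binder that promotes mRNA decay, measured 29.7 and 34.1 FPKM uninduced and 15.3 and 15.6 FPKM induced. The log2 value fell by 1.0 ± 0.19 (limma adjusted p = 0.0242). Both calls held under each of the 3 other scalings.

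Hnrnph2 had its higher values in the induced samples. It encodes 1 of the closely related H-type hnRNPs that bind runs of G, lies on chromosome X (134601179 to 134607060), and measured 89.0 and 40.8 FPKM uninduced and 151 and 143 FPKM induced. Both induced values were higher than both uninduced ones, which differed by more than 2 times from each other. The log2 fold change of 1.27 ± 0.39 did not pass (limma adjusted p = 0.0686; 95% interval 0.27 to 2.28), though it did under quantile normalization (0.0404), with a replicate block (0.0421) and among loci with 1 symbol only (0.0308). Hnrnph1, its autosomal relative, measured 74.2 and 110 FPKM uninduced and 75.9 and 51.9 FPKM induced, and overlapped between groups. Hnrnph3 was at 13.5 and 14.4 against 16.6 and 16.4 FPKM.

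Several of the most abundant hnRNPs were lower in the induced samples without passing the test. Hnrnpl, which binds CA repeats, measured 190 and 224 FPKM uninduced and 133 and 124 FPKM induced (log2 fold change -0.68 ± 0.20, limma adjusted p = 0.0627, and 0.0389 among loci with 1 symbol only). Hnrnpa2b1 measured 274 and 234 against 177 and 150 FPKM (log2 fold change -0.63 ± 0.21, limma adjusted p = 0.0851). Neither pair of groups overlapped, and the same was seen for Hnrnpf, an H-type relative, at 324 and 264 against 219 and 188 FPKM.

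Hnrnpa1, the most abundant member of all in uninduced replicate 1, measured 432 and 302 FPKM uninduced and 304 and 303 FPKM induced. Only that 1 sample stood out, and the log2 fold change of -0.25 ± 0.26 (limma adjusted p = 0.488, 95% interval -0.91 to 0.40) became 0.01 without it. GENCODE M21 holds 14 pseudogenes that match at least 500 bases of Hnrnpa1 mRNA at 90% identity or more, so its reads may be split. The 10 of these in the table summed to 0.47 to 0.74 FPKM. Hnrnpk, which binds C-rich RNA, measured 377 and 259 FPKM uninduced and 355 and 325 FPKM induced, and overlapped between groups.

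Hnrnpc, a core component of hnRNP particles that binds U tracts, measured 112 and 83.4 FPKM uninduced and 67.8 and 75.2 FPKM induced. Its single pseudogene match in the table was itself at 11.9 to 18.0 FPKM, so the split between them is uncertain. The other 4 hnRNP genes, Hnrnpdl, Hnrnpll, Hnrnpr and Hnrnpul1, ranged from 23.3 to 58.7 FPKM over all samples and were not called. The summed FPKM of the 16 hnRNP genes was 2601 and 2131 uninduced and 1900 and 1697 induced, a ratio of 0.76. On the log2 scale that is -0.39 as deposited and -0.16 under quantile normalization.

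Of the PTB genes Ptbp1 fell, and Ptbp2 and Ptbp3 were not called. PTBP1 is the form of most dividing cells, represses many cassette exons and is known to promote skipping of an exon in Ptbp2 transcripts that leads to their decay; PTBP2 is best known from neurons and PTBP3 (ROD1) from blood cells. Ptbp1 (chromosome 10, 79854427 to 79864771) measured 163 and 117 FPKM uninduced and 68.4 and 58.8 FPKM induced. The groups were well apart, and the log2 fold change was -1.11 ± 0.24 (limma adjusted p = 0.0323). The call did not pass under quantile normalization (limma adjusted p = 0.0535) or with the reduced sums (0.0602).

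Ptbp2 measured 7.77 and 4.95 FPKM uninduced and 14.9 and 11.3 FPKM induced, both induced values being the higher ones. Its log2 fold change of 0.95 ± 0.28 fell short of the threshold (limma adjusted p = 0.0650; 95% interval 0.22 to 1.68), but passed with a replicate block (0.0296) and among loci with 1 symbol only (0.0353). Ptbp3 measured 51.9 and 24.4 against 50.1 and 35.7 FPKM, differing more between replicates than between groups. Within each sample the FPKM ratio of Ptbp1 to Ptbp2 was 21.0 and 23.6 uninduced and 4.61 and 5.21 induced. Replicates lay closer together in this ratio than in the single levels of the 2 genes, though only slightly closer than for induced Ptbp1. Relative to Ptbp3, Ptbp1 stood at 3.14 and 4.78 uninduced and 1.36 and 1.65 induced.

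**Figure D4:**
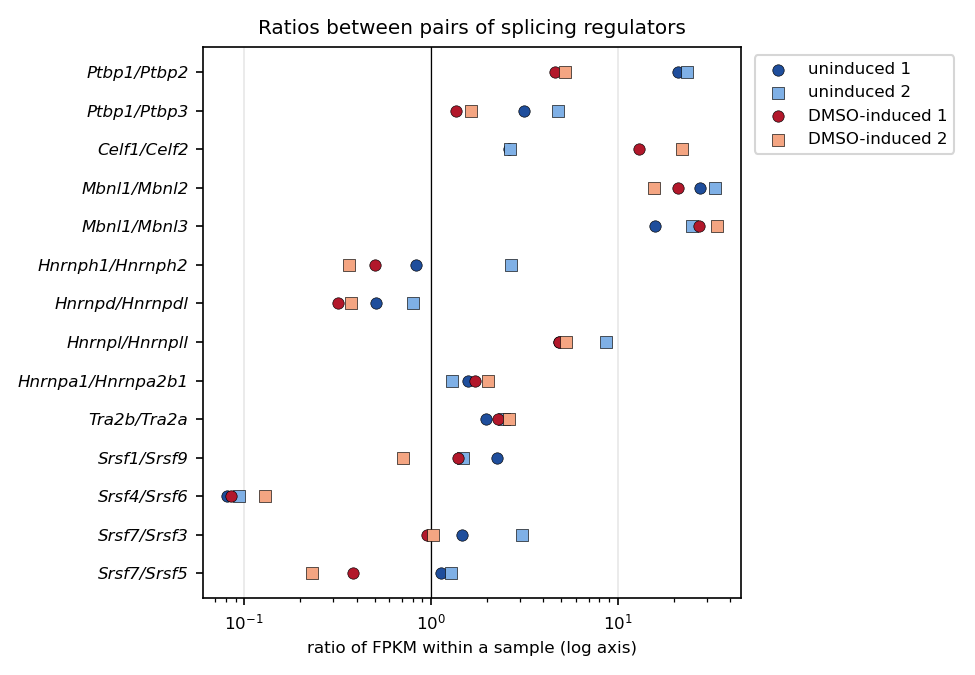
Ratio of FPKM of 2 genes within the same sample (log axis), 1 row per pair, with blue symbols for uninduced and red for DMSO-induced samples. Ptbp1/Ptbp2 lies at 21.0 and 23.6 uninduced and 4.61 and 5.21 induced, and Tra2b/Tra2a overlaps between groups. Celf1/Celf2 lies at 2.64 and 2.67 and then 13.1 and 22.1, over low induced Celf2 values of 2.90 and 1.33 FPKM.

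Muscleblind proteins are zinc-finger splicing factors that are sequestered by expanded repeats in myotonic dystrophy. Mbnl2 (chromosome 14, 120275669 to 120431697) rose from 4.42 and 2.49 FPKM uninduced to 9.25 and 9.52 FPKM induced. Both induced values exceeded 2 times the higher uninduced one, and the log2 fold change was 1.26 ± 0.28 (limma adjusted p = 0.0337). Mbnl1, the dominant muscleblind gene here by more than 10-fold, measured 122 and 82.4 FPKM uninduced and 196 and 149 FPKM induced. Its groups did not overlap, and the log2 fold change of 0.76 ± 0.28 (limma adjusted p = 0.103; 95% interval 0.04 to 1.48) did not pass, except under quantile normalization and with a replicate block. Mbnl3, which lies on chromosome X, measured 7.67 and 3.28 against 7.17 and 4.39 FPKM and overlapped between groups.

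Celf2 had the largest fall of the 40 members on the log2 scale. CELF proteins bind GU-rich elements and act against MBNL proteins on many muscle and brain exons. Celf2 (chromosome 2, 6539694 to 7509563) measured 10.6 and 5.66 FPKM uninduced and 2.90 and 1.33 FPKM induced. Its log2 fold change was -1.54 ± 0.40 (limma adjusted p = 0.0457), and this call did not pass with the reduced sums (limma adjusted p = 0.0630) or with a pseudocount of 0.1 (0.0543). GENCODE M21 has the antisense gene Gm26565 over 1961 of its exonic bases.

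Celf1, the widely expressed relative, measured 27.9 and 15.1 FPKM uninduced and 38.0 and 29.4 FPKM induced and was not called. The 2 genes differed in replicate 2 from replicate 1 by a like factor in the uninduced cells, so that the ratio of Celf1 to Celf2 was 2.64 and 2.67 uninduced. In the induced samples it was 13.1 and 22.1, where Celf2 measured only 2.90 and 1.33 FPKM, near the filter of 1 FPKM. Rbfox2, which binds UGCAUG and is known to act on Epb41 exons, was low, at 2.80 and 2.29 FPKM uninduced and 3.68 and 3.33 FPKM induced, with no call.

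Rbm38, the erythroid splicing activator named above, measured 33.8 and 29.1 FPKM uninduced and 33.4 and 44.7 FPKM induced. The groups overlapped, and the log2 fold change of 0.29 ± 0.23 (limma adjusted p = 0.373) had a 95% interval of -0.29 to 0.87. A rise of 2-fold on the log2(FPKM + 1) scale lay outside this interval, which holds for the values as deposited only. The log2 fold change was larger under quantile normalization (0.45 ± 0.21) and with the reduced sums (0.39 ± 0.25). No interval was computed for these, so a 2-fold rise is not excluded.

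Ratios were computed for 14 pairs of related members, picked after their levels were seen. In 11 pairs both induced ratios lay on 1 side of both uninduced ratios and in 3 they overlapped. Single loci did not overlap in 70.8% of the table and no share was computed for other pairs of genes, so nothing is read from this count. Hnrnph1 to Hnrnph2 was 0.83 and 2.70 uninduced and 0.50 and 0.36 induced, with uninduced samples on either side of 1. Srsf7 to Srsf5 was 1.13 and 1.29 uninduced and 0.385 and 0.232 induced, so Srsf7 was the higher of the pair uninduced and Srsf5 induced. Tra2b to Tra2a, at 1.97 and 2.46 against 2.28 and 2.62, was among the overlapping pairs. Ratios within a sample do not change with the scaling factor of that library.

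At the 6 loci that carry a second symbol, the value cannot be given to 1 gene, and none was called. The locus of Hnrnpa3, another A/B-type hnRNP, with Gm24574 measured 122 and 92.3 FPKM uninduced and 60.0 and 34.8 FPKM induced. The locus of Clk4, a relative of Clk1, with Gm25082 was at 12.1 and 8.63 FPKM uninduced and 23.9 and 17.2 FPKM induced. The Hnrnpu locus measured 157 and 98.2 against 85.1 and 64.2 FPKM, and the locus of Hnrnpm with March2 135 and 94.4 against 145 and 168 FPKM. For the loci of Hnrnpul2 and Srrm2 the levels lay between 8.61 and 48.1 FPKM.

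A feature that the choice of members did not use was their annotated transcript forms. In GENCODE M21, 27 of the 41 members (65.9%) have at least 1 transcript classed as a target of nonsense-mediated decay, against 30.7% of 8836 protein-coding genes tested. Among SR protein genes it was 9 of 11 and among hnRNP genes 9 of 16, while none of the 3 MBNL genes had one. Retained-intron transcripts were listed for 31 of 41 members (75.6%) and for 62.2% of the protein-coding genes. Members also have more transcripts in all, with a median of 10 against 5. Among the called genes, Hnrnpd (385 bases, Gm17092), Mbnl2 (86 bases, Gm26679) and Ptbp1 (3 genes, 251 to 437 bases each) also share exonic bases with antisense genes, as stated for Srsf2, Hnrnpab and Celf2, and reads there cannot be assigned without the strand. The FPKM table gives 1 value per locus, and whether decay-bound or coding forms made the differences above was not tested.

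Other genes of the splicing pathway were taken from 10 lists written with earlier results of these data known. The 173 listed genes gave 148 tested loci (Scaf8 stood at 2 of them), of which 32 fell (21.6%), 5 rose (3.38%) and 111 were not called. Over all loci tested, 14.7% were called lower and 11.5% higher, and among those with a mean of at least 20 FPKM 19% and 10.1%. The median log2 fold change was -0.19. Of the 32 that fell, 17 were among the 56 tested in the U1, U2, Sm and Lsm, and tri-snRNP lists, where none rose (median -0.50).

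Components of the Sm and Lsm rings, which encircle the snRNAs, fell in 5 of 14. As deposited, all 14 had a log2 fold change below 0, as 6294 of the 12890 loci tested did. Lsm8 (-0.005) and Lsm6 (-0.06) lay close to 0, and signs in this list were not counted under other scalings. Lsm7 measured 339 and 253 FPKM uninduced and 125 and 82.3 FPKM induced (log2 fold change -1.52 ± 0.29, limma adjusted p = 0.0252). In the tri-snRNP list 6 of 15 fell, led by Nhp2l1 (the 15.5K protein of U4 snRNP), at 241 and 213 against 103 and 95.5 FPKM (-1.18 ± 0.20, limma adjusted p = 0.0194). Of 18 U2 snRNP genes 4 fell, and Snrpa1, a core U2 snRNP protein, had the largest fall, from 234 and 170 FPKM to 59.6 and 39.2 FPKM (-2.02 ± 0.30, limma adjusted p = 0.0163). Of 9 U1 snRNP genes 2 fell, with Snrpa, the A protein of U1 snRNP, at 93.8 and 87.3 against 47.2 and 43.6 FPKM (-0.98 ± 0.18, limma adjusted p = 0.0231). The share called lower was 35.7% in the Sm and Lsm list and 40% in the tri-snRNP list. It was 22.2% in each of the U2 and U1 lists, against 14.7% of all loci tested and 19% of those with a mean of at least 20 FPKM.

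At the 3′ splice site, U2af1, the small U2AF subunit that reads the terminal AG, fell from 180 and 155 FPKM to 67.0 and 51.0 FPKM (-1.50 ± 0.23, limma adjusted p = 0.0172). U2af2 fell as well, and Zrsr1, a relative of U2af1, rose from 1.55 and 1.15 FPKM to 5.05 and 6.72 FPKM (1.54 ± 0.24, limma adjusted p = 0.0180). Of 22 genes of the Prp19 complex and catalytic steps 5 fell (22.7%). Of these 22, 12 had a log2 fold change above 0 and 10 below, with a median of 0.04. Prpf19, the ubiquitin ligase of that complex, was at 138 and 137 against 47.0 and 37.5 FPKM (-1.69 ± 0.20, limma adjusted p = 0.0130). The exon junction and decay list had 4 of 16 fallen (25%), led by Smg9 at 17.0 and 22.6 against 8.95 and 7.73 FPKM (-1.14 ± 0.23, limma adjusted p = 0.0276). Of all loci tested 14.7% were called lower, and of those with a mean of at least 20 FPKM 19%.

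Of 7 tested genes in the list of SR protein kinases and their importer, 1 rose, 1 fell and 5 were not called. The log2 fold change was above 0 for 5 and below 0 for 2, and above 0 for 6596 of all 12890 loci. Those not called were Clk2, Clk3, Dyrk1a and Prpf4b (log2 fold changes 0.54, 0.73, 0.52 and 0.17) and the importer Tnpo3 (-0.02). Srpk1, the cytoplasmic kinase that prepares SR proteins for nuclear import, fell from 57.5 and 60.0 FPKM to 32.2 and 27.5 FPKM (log2 fold change -0.96 ± 0.19, limma adjusted p = 0.0264). Its relative Srpk2 rose from 7.10 and 5.32 FPKM to 14.9 and 15.8 FPKM (1.19 ± 0.22, limma adjusted p = 0.0236), and with Clk1 these are the 3 SR protein kinase genes that were called. At the 36 tested loci of other RNA-binding regulators 2 rose and 2 fell (5.56% each, against 11.5% and 14.7% of all loci tested). Pnisr, an SR-related protein, was at 12.04 and 8.97 against 26.0 and 25.9 FPKM (1.24 ± 0.22, limma adjusted p = 0.0213), and Pcbp1, a poly(C)-binding protein, at 40.8 and 55.1 against 19.1 and 16.4 FPKM (-1.37 ± 0.23, limma adjusted p = 0.0199). In the minor spliceosome list Snrnp25 rose and Snrnp35 fell. Snrnp25 measured 85.8 and 64.1 FPKM uninduced and 144 and 177 FPKM induced (1.09 ± 0.24, limma adjusted p = 0.0326), and Snrnp35 5.88 and 9.18 against 2.86 and 2.55 FPKM (-1.18 ± 0.27, limma adjusted p = 0.0354).

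**Figure D5:**
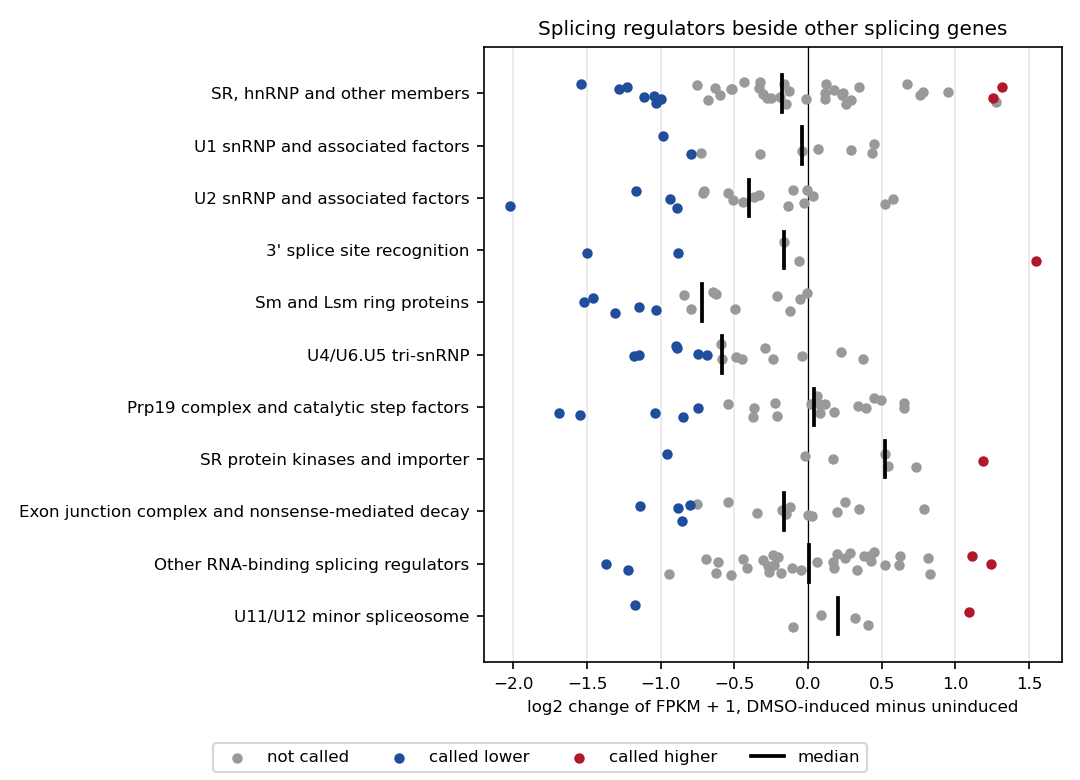
Change on the log2(FPKM + 1) scale of each tested gene, DMSO-induced minus uninduced, in the 40 members (top row) and the 10 other splicing lists; points are genes, spread vertically at random, and black bars are medians. As deposited, the Sm and Lsm row lies left of 0 with a median of -0.72, its highest value being -0.005. The members' row spans both sides with a median of -0.18.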

How the data were processed

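Gene expression was measured by RNA-seq in 4 MEL cell samples, 2 uninduced and 2 DMSO-induced, grouped and numbered by their titles. The submitters' processing notes name TopHat2 and the build GRCm38. For the tool's version, the quantifier, its annotation and strandedness, nothing is given in the sources used here. Each sample has 1 column of FPKM in the table that the authors deposited; the unit was inferred from its Cufflinks-type header and from values that were not whole and summed to 1055861 to 1325806 per sample. Read depth is not given, so no counting intervals were computed, and no count model was used.

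The 12890 loci that reached 1 FPKM in 2 or more samples were tested on log2(FPKM + 1) with limma 3.58.1 in R 4.3.3 (trend, group as the only term), with Benjamini-Hochberg adjustment over all of them at 0.05. This scale understates changes of low genes. Members and lists were chosen with earlier results of these data known. Full statistics were given to called members, to the most abundant and most changed member of each family, and to the called pathway gene with the largest change in each direction of each list, while loci with several symbols got values without a fold; further genes were picked with their values known. Positions, transcript classes and exon overlaps come from GENCODE M21, promoter windows from RefSeq on GRCm38.p6, and pseudogene copies from blastn 2.17.0. Alternatives covered scaling, filter, pseudocount, trend, a replicate block, loci kept and leaving out each sample; the latter kept the same 12890 loci.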

Additional observations from a re-analysis of the deposited data

How the results depend on the processing

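The 9 calls among the members rested on all 4 samples and on the filter. With 1 sample left out (a lone sample being assumed to vary like the other group), 0 members were called higher and 0 lower in each of the 4 fits, and the calls across the table went from 3377 to between 14 and 486. With loci of low level kept, 30 loci and 0 members were called. Quantile normalization gave 5 members higher and 4 lower. Library sums that leave out globins and the 10 most abundant loci gave 2 higher and 3 lower, with 5 of the 9 named calls kept. Loci with 1 symbol only gave 5 higher and 9 lower. Of the calls over all loci, 51.8%, 50.5% and 49.05% were higher in these settings, in that order, against 43.8% as deposited. That scaling on reduced sums moved the median log2 fold change of all loci from 0.03 to 0.11. The replicate block gave 5 higher and 8 lower and kept each of the 9 calls, and 45.75% of its calls over all loci were higher. Samples with the same number deviated together with a correlation of 0.17 across loci, which with 2 pairs does not show a pairing. Srsf7, Hnrnpa0, Hnrnpd, Clk1 and Mbnl2 kept their call in 9 of the 10 alternatives with all 4 samples, losing it only when low loci were kept. Hnrnpab, Ptbp1 and Celf2 kept theirs in 7 and Srsf2 in 5. The log2 fold change of Hnrnpa1 ranged from -0.509 (without uninduced replicate 2) to 0.0060 (without uninduced replicate 1) with 1 sample left out. That of Tra2b turned to 0.0735 under quantile normalization; the cause was not tested. The summed SR protein FPKM changed by -0.27 (log2) as deposited and -0.02 under quantile normalization, and the hnRNP sum by -0.39 and -0.16. The 14 named pathway genes kept their call in each alternative with all 4 samples except when low loci were kept, when none did; without induced replicate 1, 2 of them passed, and without any other sample none. Read depth is unknown, so precision rests on 2 samples per group.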
